A study of Mus musculus with 8 samples.

Results

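The 36 genes described here encode the enzymes of sterol and fatty acid synthesis and the sterol regulatory element-binding proteins (SREBPs) that control their transcription. They also include genes of sterol uptake, transport and feedback, not all of them under the same control. All 36 were found in both count tables, among 23420 genes listed by symbol at E11.5 and 78298 listed by Ensembl identifier at E12.5. Genes of this group were first noticed as higher in the E12.5 cortices labelled Mboat7-/-, that is, they were chosen by their E12.5 read counts in the very comparison described here, so their E12.5 difference is given without a test, and only E11.5, whose values did not choose them, is tested. They do not hold every enzyme of the pathway.

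RNA sequencing was performed on cortices of single mouse embryos, 2 heterozygous (Mboat7+/-) and 2 knockout (Mboat7-/-) at E11.5, and the same numbers at E12.5, 8 cortices in all. Mboat7 encodes the acyltransferase that places arachidonic acid into phosphatidylinositol, and the comparison asks which transcripts differ around the onset of neurogenesis when it is lost. The line is a global knockout kept on C57BL/6N, so that every tissue of the embryo and not the cortex alone carries the alleles, the controls carry 1 mutant copy, no wild-type cortex is among these samples, and embryos of either sex were taken. The stages were sequenced by different providers on different platforms, so levels are compared between genotypes within a stage and never between stages.

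Levels are given as CPM (read counts scaled to a common library size) on library sizes normalized by TMM, and log2 fold changes, labelled Mboat7-/- over Mboat7+/-, ± their standard error from the edgeR fit. Values set against each other are Mboat7+/- replicates 1 and 2 against replicates 1 and 2 of the cortices labelled Mboat7-/-. The total read count per cortex ranged from 20799311 to 28189771. A count of 3, taken as the floor, is at most 0.144 CPM, far below every gene described here. Mboat7 itself did not clearly mark the knockouts at either stage. Its E11.5 counts were 700 and 876 in the Mboat7+/- libraries and 1103 and 860 in those labelled Mboat7-/- (log2 fold change 0.17 ± 0.11, edgeR adjusted p 0.527). Its E12.5 counts were 739 and 782 in the controls and 730 and 729 in those labelled Mboat7-/-. In CPM these were 35.5 and 36.2 against 31.7 and 32.2, lower without overlap by a small margin (log2 fold change -0.17 ± 0.10, edgeR adjusted p 0.958). Which exons the mutant allele lacks was not analysed here, so every direction below is as the labels give it. Xist, the RNA of the inactive X chromosome, had 17875 counts in Mboat7+/- replicate 1 at E11.5 and at most 2 in every other cortex. The 5 markers of the dorsal telencephalon used (Emx1, Emx2, Lhx2, Pax6 and Tbr1) were detected in every library, the lowest being Emx1 with 1012 counts in replicate 1 of the E11.5 cortices labelled Mboat7-/-.

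Cells make cholesterol from acetyl-CoA through the mevalonate pathway to squalene, close squalene into lanosterol, and trim lanosterol to cholesterol. Fatty acids are built from the same acetyl-CoA by acetyl-CoA carboxylase and fatty acid synthase, then elongated and desaturated. SREBPs are held in the endoplasmic reticulum with SCAP by INSIG proteins when sterols are plentiful, and are released, cleaved and sent to the nucleus when sterols fall. The embryonic brain, behind its forming barrier, relies largely on its own sterol synthesis.

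In the cortices labelled Mboat7-/- at E12.5, 32 of the 36 genes were higher and 4 lower than in Mboat7+/- cortices, and the median log2 fold change was 0.15. Over all 16326 genes tested at E12.5, 51.2% had a log2 fold change above 0 and the median was 0.005. Insig1 and Scd1 stood furthest from 0, and the steps from squalene to cholesterol were all on the higher side. In these whole cortices a different share of a cell type and a different amount of RNA per cell cannot be told apart. At E11.5, 16 of the 36 were higher and 20 lower, with a median of -0.03, against 49% of all 14935 genes tested higher and a median of -0.006. By step, the median at E12.5 and E11.5 was 0.05 and -0.09 for the SREBP genes and their controls, 0.20 and 0.18 for uptake and transport (with Lpin1 grouped there), 0.07 and -0.12 for the mevalonate steps, 0.17 and -0.08 from squalene to lanosterol, 0.22 and -0.06 from lanosterol to cholesterol, and 0.11 and 0.06 for fatty acids. At E11.5 the 36 log2 fold changes ran from -0.26 (Acat2) to 0.27 (Mylip).

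**Figure D1:**
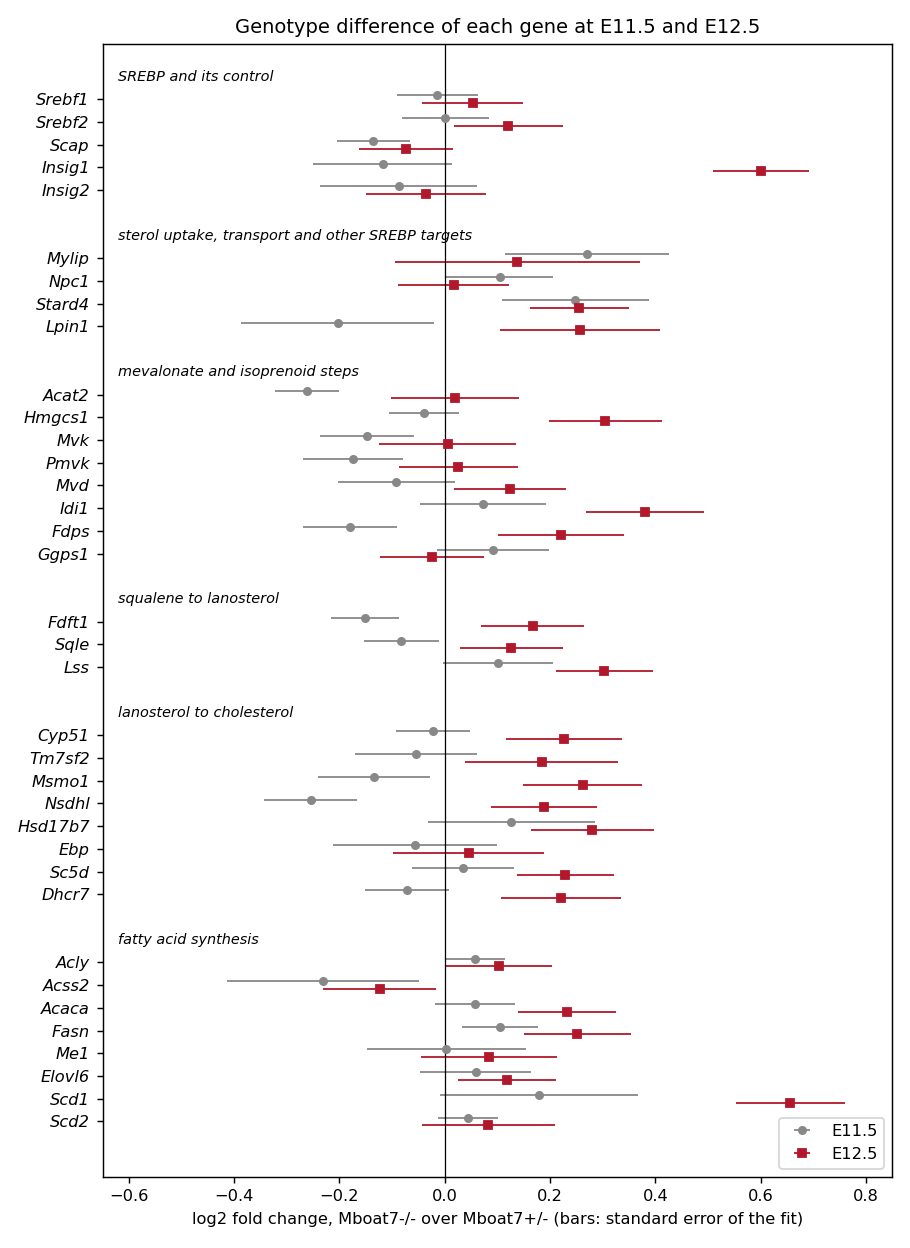
Log2 fold change (x axis, cortices labelled Mboat7-/- over Mboat7+/-, 2 cortices each) of the 36 genes in pathway order (y axis), grey circles for E11.5 and red squares for E12.5, with bars for the standard error of the edgeR fit. At E12.5 Insig1 (0.60) and Scd1 (0.66) lie to the right of all other genes, and 32 of 36 lie above 0, against 16 of 36 at E11.5.

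The upstream sequence of some of these genes is shown because SREBPs act there. RefSeq start sites of GRCm38.p6 were available for 29 of the 36 genes, as windows from 250 bases before to 50 after each start. The letters searched, on both strands, were the core of the sterol regulatory element, TCACNCCAC, the longer element made of that core with an A before it (so that each longer match is also a core match), the NF-Y box CCAAT and the E-box CACGTG. The longer element was in none of the 29 genes and in 0.27% of the 27025 genes with a window. Its core was in 1 of them, Hmgcs1, and in 1.44% of all genes. CCAAT, the site of a factor known to work beside SREBPs, was in 24 of the 29 (82.8%), against 41.1% of all genes and 43% of the 11312 genes tested at E12.5 that had a window. CACGTG was in 5 of the 29, 17.2%, against 8.09% of all genes and 11.3% of those tested. A gene was counted if any of its windows held the letters. By window, CCAAT was in 65.8% of the 38 windows of these genes and in 37.4% of all 32851 windows. For CACGTG these shares were 15.8% and 7.15%. All these shares describe letters in the windows and not binding.

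The windows printed are those of Insig1 (chr5:28071162-28071461, plus strand), Idi1 (chr13:8885356-8885655, plus strand), Hmgcs1 (chr13:119690101-119690400, plus strand) and Lss (chr10:76531355-76531654, plus strand), chosen because these were the genes with a window and the largest E12.5 difference, and of Acss2 (chr2:155517793-155518092, plus strand), the gene with the lowest. Capitals mark ATTGG, which is CCAAT read on the other strand, and the TCACCCCAC of Hmgcs1.
Insig1: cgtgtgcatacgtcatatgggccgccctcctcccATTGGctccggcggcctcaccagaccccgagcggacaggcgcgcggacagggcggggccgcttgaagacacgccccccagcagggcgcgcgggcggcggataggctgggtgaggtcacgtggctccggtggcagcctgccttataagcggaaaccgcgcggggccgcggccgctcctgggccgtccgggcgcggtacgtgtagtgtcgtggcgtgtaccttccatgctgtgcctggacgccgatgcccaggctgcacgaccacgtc
Idi1: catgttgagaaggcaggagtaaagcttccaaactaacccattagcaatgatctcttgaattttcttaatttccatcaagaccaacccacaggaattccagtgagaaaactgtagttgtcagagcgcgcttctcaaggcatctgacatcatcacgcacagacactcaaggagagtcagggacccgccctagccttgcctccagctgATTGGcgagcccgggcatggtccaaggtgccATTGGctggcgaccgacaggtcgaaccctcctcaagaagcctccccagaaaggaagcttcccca
Hmgcs1: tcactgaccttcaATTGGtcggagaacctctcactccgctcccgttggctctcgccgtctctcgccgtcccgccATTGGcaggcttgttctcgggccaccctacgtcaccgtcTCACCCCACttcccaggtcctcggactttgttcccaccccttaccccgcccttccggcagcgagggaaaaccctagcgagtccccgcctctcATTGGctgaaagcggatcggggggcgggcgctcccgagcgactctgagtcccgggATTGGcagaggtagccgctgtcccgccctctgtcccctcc
Lss: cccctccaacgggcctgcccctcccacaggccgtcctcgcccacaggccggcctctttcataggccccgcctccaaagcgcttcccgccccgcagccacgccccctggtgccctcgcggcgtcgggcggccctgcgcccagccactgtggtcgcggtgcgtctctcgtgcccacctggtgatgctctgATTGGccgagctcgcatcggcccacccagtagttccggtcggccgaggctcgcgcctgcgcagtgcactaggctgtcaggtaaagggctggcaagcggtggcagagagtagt
Acss2: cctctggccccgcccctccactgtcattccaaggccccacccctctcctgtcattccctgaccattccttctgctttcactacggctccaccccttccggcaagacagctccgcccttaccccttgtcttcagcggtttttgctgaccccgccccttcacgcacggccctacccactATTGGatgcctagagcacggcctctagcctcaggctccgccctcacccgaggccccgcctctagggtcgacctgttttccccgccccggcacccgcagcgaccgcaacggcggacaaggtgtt
The Hmgcs1 window holds the core element 137 bases before the start together with 4 NF-Y boxes, Idi1 holds 2 such boxes, and Insig1, Lss and Acss2 hold 1 each. Acss2, which was lower at E12.5, has an NF-Y box like the other genes printed, which were higher. No such box was in the windows of Acaca, Elovl6 and Lpin1, higher without overlap at E12.5, or of Scap, lower without overlap. Whether the box goes with the direction was not tested.

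Among the SREBP genes and their controls, the genes of both transcription factors differed little in level. Srebf1, which encodes the SREBP that mainly drives fatty acid genes, was at 74.4 and 78.4 CPM in the Mboat7+/- cortices and 75.0 and 83.5 CPM in those labelled Mboat7-/- at E12.5, so that the groups overlapped. Its log2 fold change was 0.05 ± 0.10. Srebf2, the factor chiefly of sterol genes, was at 359 and 377 CPM against 418 and 382 CPM, both labelled Mboat7-/- cortices above both controls by a small margin, with a log2 fold change of 0.12 ± 0.10. Scap, whose product escorts SREBPs to the Golgi apparatus, was slightly lower, at 92.7 and 95.4 CPM against 89.0 and 89.7 CPM. Its log2 fold change was -0.07 ± 0.09, without overlap.

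Insig1 and Insig2 encode the anchors that keep SCAP in the endoplasmic reticulum, and Insig1 is itself a classic SREBP target while Insig2 is much less so. At E12.5, Insig1 (ENSMUSG00000045294) was at 82.7 and 77.8 CPM in the Mboat7+/- cortices and 122 and 122 CPM in those labelled Mboat7-/-. Both of the latter were far above both controls, 1.52-fold in the fit, a log2 fold change of 0.60 ± 0.09. With each cortex left out in turn it stayed between 0.56 and 0.64. Insig2 was at 21.3 and 21.7 CPM against 21.3 and 20.6 CPM, nearly level in all 4 cortices, with a log2 fold change of -0.04 ± 0.11. The count of Insig1 over that of Insig2, a ratio within a library that no scaling of the library changes, was 3.88 and 3.59 in the E12.5 controls and 5.71 and 5.89 in the cortices labelled Mboat7-/-. At E11.5 the same ratio was 6.88 and 5.95 against 6.54 and 6.09, with the groups overlapping.

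**Figure D2:**
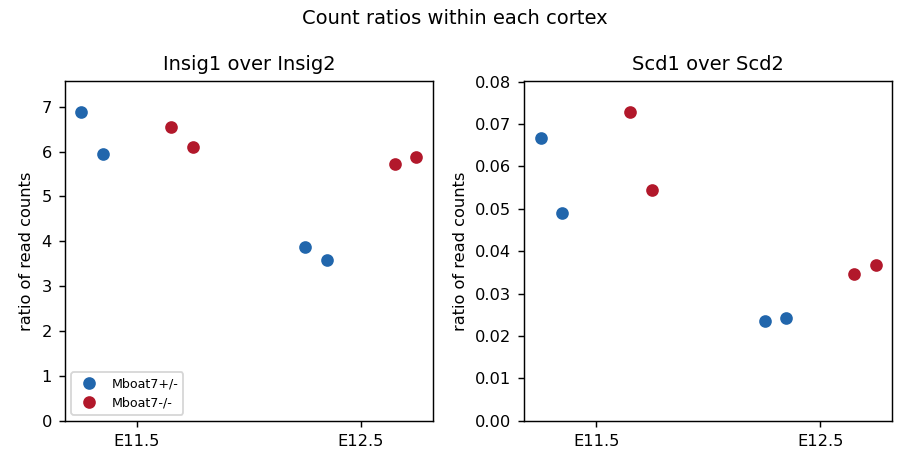
Ratio of the read counts (y axis, no unit) of Insig1 to Insig2 on the left and of Scd1 to Scd2 on the right, a point for each of the 8 cortices, blue for Mboat7+/- and red for those labelled Mboat7-/-. At E12.5 the red points (5.71 and 5.89 for Insig1 over Insig2) lie above the blue ones (3.88 and 3.59), and at E11.5 the colours overlap.

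Lpin1 was grouped with the genes of sterol uptake and transport. Of this group, Stard4, which encodes a cytosolic carrier of cholesterol, was at 62.0 and 58.2 CPM against 73.4 and 70.1 CPM (Mboat7+/- against labelled Mboat7-/-) at E12.5, higher in both with a log2 fold change of 0.26 ± 0.09. It was also higher in both at E11.5, at 28 and 23.1 CPM against 32.1 and 28.5 CPM, a log2 fold change of 0.25 ± 0.14, with an edgeR adjusted p of 0.479. Lpin1, which encodes a phosphatidate phosphatase, was lowly expressed, at 12.1 and 10.6 CPM against 13.2 and 13.9 CPM at E12.5 and 14.9 and 12.6 CPM against 10.8 and 13.1 CPM at E11.5. Its log2 fold change was 0.26 ± 0.15 at the later stage and -0.20 ± 0.18 at the earlier one, where the groups overlapped. Npc1, the lysosomal exporter of cholesterol taken up from lipoproteins, and Mylip, which encodes a ubiquitin ligase that removes lipoprotein receptors and answers to LXR rather than to SREBP, overlapped between the genotypes at E12.5, with log2 fold changes of 0.02 and 0.14. At E11.5 both were higher without overlap, Npc1 at 36.3 and 35.3 CPM against 39.3 and 37.6 CPM and Mylip at 11.9 and 12.6 CPM against 14.7 and 14.9 CPM. The direction of Npc1 at E11.5 turned to -0.03 on the log2 scale with trends over length and GC removed.

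In the mevalonate and isoprenoid steps at E12.5, 7 of 8 genes were higher but only 2 without overlap. Over all genes tested at E12.5, 51.2% were higher and 16.9% higher without overlap. The counts by step here and below come from the values that chose the group. Hmgcs1, which makes HMG-CoA, was at 449 and 461 CPM in the Mboat7+/- cortices and 594 and 529.6 CPM in those labelled Mboat7-/-, or in log2 fold change 0.30 ± 0.11. Idi1, the isopentenyl diphosphate isomerase, was at 139 and 151 CPM against 207 and 169.9 CPM, with a log2 fold change of 0.38 ± 0.11, the third largest of the 36. Replicate 1 of those labelled Mboat7-/- was the high one for both genes, and without it the value for Idi1 was 0.22. Of the 50-base words in Idi1 transcripts, 25.3% also occur, on either strand, in transcripts of other genes. How reads of such words were counted was not examined, which leaves the Idi1 count uncertain. The share of such words was higher still for Acat2 (39.1%), Acaca (30.4%), Me1 (28.3%), Fdft1 (26.5%) and Fdps (26.2%), whose counts are uncertain in the same way. For Hmgcs1 it was 11.6%.

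The other genes of this stretch showed little. Acat2, the acetoacetyl-CoA thiolase of the first step, was at 331 and 387 CPM against 397 and 331 CPM at E12.5, with replicate 2 of the controls and replicate 1 of the labelled Mboat7-/- cortices high. All of the words it shares are also in Acat3. Mvk, Pmvk and Mvd, which phosphorylate mevalonate and decarboxylate it, had log2 fold changes of 0.01, 0.03 and 0.12, each with overlap. Fdps, which makes farnesyl diphosphate, was at 156 and 193 CPM against 215 and 191 CPM, where 1 control reached the level of the labelled Mboat7-/- cortices (log2 fold change 0.22 ± 0.12). Ggps1, which leads away from sterols to geranylgeranyl groups for protein prenylation, had a log2 fold change of -0.02 and overlapped.

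All 3 genes that lead from farnesyl diphosphate to lanosterol were higher without overlap at E12.5, as were 16.9% of all genes tested. Fdft1, the squalene synthase, was at 152 and 169 CPM in the Mboat7+/- cortices and 186 and 175 CPM in those labelled Mboat7-/- (log2 fold change 0.17 ± 0.10). Sqle, the squalene epoxidase and a rate-controlling step, was at 182 and 188 CPM against 212 and 191 CPM, with the second labelled Mboat7-/- cortex just above the controls. Its log2 fold change was 0.13 ± 0.10. Lss, the lanosterol synthase, showed the clearest separation of the 3, at 76.4 and 83.0 CPM against 100.2 and 96.4 CPM, with a log2 fold change of 0.30 ± 0.09.

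From lanosterol to cholesterol, 8 of 8 genes were higher at E12.5 and 7 of them without overlap, and the median of these 8 was 0.22. Of all genes tested, 51.2% were higher and 16.9% higher without overlap, with a median of 0.005. Sc5d, the lathosterol desaturase, was at 60.0 and 60.5 CPM in the Mboat7+/- cortices and 71.6 and 69.6 CPM in those labelled Mboat7-/-. The controls were almost equal and both labelled Mboat7-/- cortices were above them, a log2 fold change of 0.23 ± 0.09. Hsd17b7, a sterol ketoreductase, was at 19.5 and 18.9 CPM against 24.3 and 22.4 CPM, with a log2 fold change of 0.28 ± 0.12. Msmo1, the methylsterol oxidase, was at 102 and 120.3 CPM against 144 and 123 CPM (log2 fold change 0.26 ± 0.11), and here the second labelled Mboat7-/- cortex lay close to the second control.

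The same order of the cortices, replicate 1 of the controls lowest and replicate 1 of the labelled Mboat7-/- cortices highest, was seen for Cyp51, the lanosterol demethylase, at 182 and 209 CPM against 244 and 212 CPM, and for Dhcr7, which makes cholesterol in the last reduction of its branch, at 74.3 and 91.9 CPM against 101 and 92.3 CPM. Their log2 fold changes were 0.23 ± 0.11 and 0.22 ± 0.11. Without replicate 1 of the controls, that of Dhcr7 was 0.07. Nsdhl, which removes a carboxyl group from methylsterols, was at 54.5 and 57.9 CPM against 67.6 and 60.4 CPM and Tm7sf2, a sterol reductase, at 12.8 and 15.5 CPM against 15.5 and 16.6 CPM, both without overlap by a narrow margin. Leaving out 1 cortex brought Nsdhl to 0.10 (without replicate 1 of those labelled Mboat7-/-) and Tm7sf2 to 0.05 (without Mboat7+/- replicate 1) on the log2 scale, from 0.19 and 0.18. Ebp, the sterol isomerase, overlapped and had a log2 fold change of 0.05 ± 0.14.

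In fatty acid synthesis at E12.5, 6 of 8 genes were higher and 1 lower without overlap, against 16.9% and 15.2% of all genes tested. Scd1 (ENSMUSG00000037071), the inducible stearoyl-CoA desaturase, was at 39.1 and 43.3 CPM in the Mboat7+/- cortices and 68.1 and 61.8 CPM in those labelled Mboat7-/-, 1.58-fold higher in the fit (log2 fold change 0.66 ± 0.10), the largest difference of the 36. Scd2, the main desaturase of the developing brain, was at 1666 and 1778 CPM against 1966 and 1681 CPM and overlapped, with a log2 fold change of 0.08 ± 0.13. Per kilobase of the longest transcript, the E12.5 controls held 316 CPM of Scd2 and 8.53 of Scd1. The Scd1 to Scd2 count ratio was 0.0235 and 0.0244 in the controls and 0.0346 and 0.0368 in the cortices labelled Mboat7-/- at E12.5, and 0.0667 and 0.0490 against 0.0728 and 0.0543 with overlap at E11.5. Scd1 shares 4.56% of its 50-base words with other genes, most of them with Scd3.

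Fasn, the fatty acid synthase, was at 475 and 478 CPM in the Mboat7+/- cortices and 579 and 555 CPM in those labelled Mboat7-/-, or in log2 fold change 0.25 ± 0.10. Acaca, the carboxylase that feeds it, was at 185 and 189 CPM against 225 and 214 CPM (log2 fold change 0.23 ± 0.09). For both, the controls were close together and both labelled Mboat7-/- cortices were above them. Acly, which releases cytosolic acetyl-CoA from citrate, Elovl6, which elongates palmitate, and Me1, which supplies NADPH, were higher by less, with log2 fold changes of 0.10, 0.12 and 0.08. Acly was at 439 and 426 CPM against 476 and 452 CPM. Elovl6 was at 105 and 104 CPM against 119 and 108 CPM and Me1 at 15.0 and 16.0 CPM against 16.2 and 16.7 CPM, in each case separated by a small margin. Acss2, which makes acetyl-CoA from acetate, went the other way, at 26.0 and 26.5 CPM against 24.1 and 24.2 CPM, a log2 fold change of -0.12 ± 0.11.

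**Figure D3:**
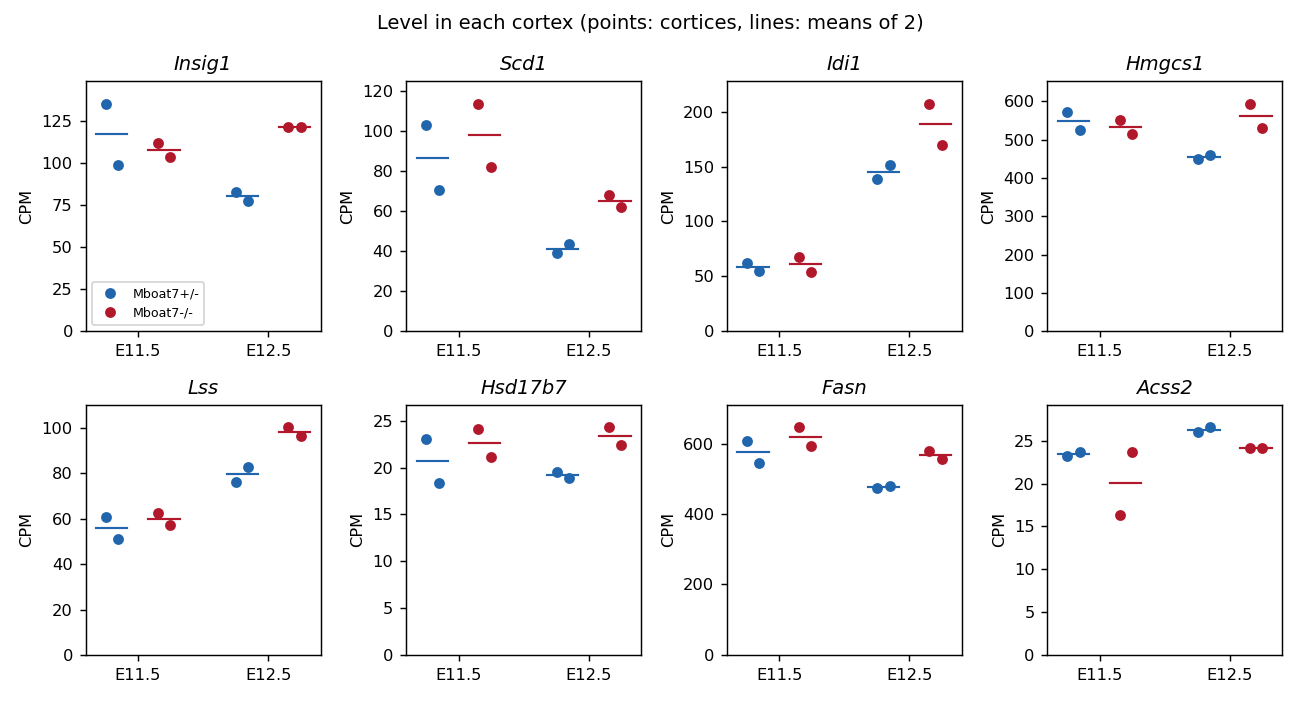
CPM on normalized library sizes (y axis, from 0) of 8 genes in each cortex at E11.5 and E12.5 (x axis), blue for Mboat7+/- and red for those labelled Mboat7-/-, with a line at the mean of 2 cortices. At E12.5 both red points lie above both blue points for all genes shown but Acss2, where they lie below, and at E11.5 the colours overlap in each panel.

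In all at E12.5, both labelled Mboat7-/- cortices lay above both controls for 22 of the 36 genes and below both for 3 (Scap, Insig2 and Acss2), against 16.9% and 15.2% of all genes tested. With trends over length and GC removed these counts were 14 and 5, and without replicate 1 of either genotype the number below was 5. Removing the trends also moved all genes, to 43.4% higher and a median log2 fold change of -0.025. The shares of all genes without overlap were not computed under these settings. All these counts of the 36 were read from the contrast in which the group was noticed and support nothing on their own. An absolute log2 fold change of 0.3 was reached by 5 of the 36 (Scd1, Insig1, Idi1, Hmgcs1 and Lss) and by 17.2% of all genes. Over the whole E12.5 table, 3 genes (0.0184% of those tested) had an adjusted p under 0.05 in edgeR. Calls among the 36 are not counted at this stage, since the same contrast chose them.

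The cortices did not contribute equally. At E12.5, Mboat7+/- replicate 1 held the lowest value for 22 of the 36 genes and replicate 1 of those labelled Mboat7-/- the highest for 24, where 18.2% and 18.9% of all genes had theirs. Replicate numbers are labelled as batches too, while the sample titles call them biological replicates and the study names no batch within a stage. The label of the second E12.5 control repeats the column name of the first. Which of the controls is replicate 1 thus rests on the number in the column name, and the values per batch rest on it as well. Within batch 1, 30 of 36 genes were higher in the cortex labelled Mboat7-/- and the median log2 difference was 0.26. Within batch 2, 26 of 36 were higher and the median was 0.06. All genes gave 50.3% higher in batch 1 and 52.6% in batch 2. Leaving out each cortex in turn kept the median of the 36 between 0.10 and 0.21, the lowest without Mboat7+/- replicate 1.

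**Figure D4:**
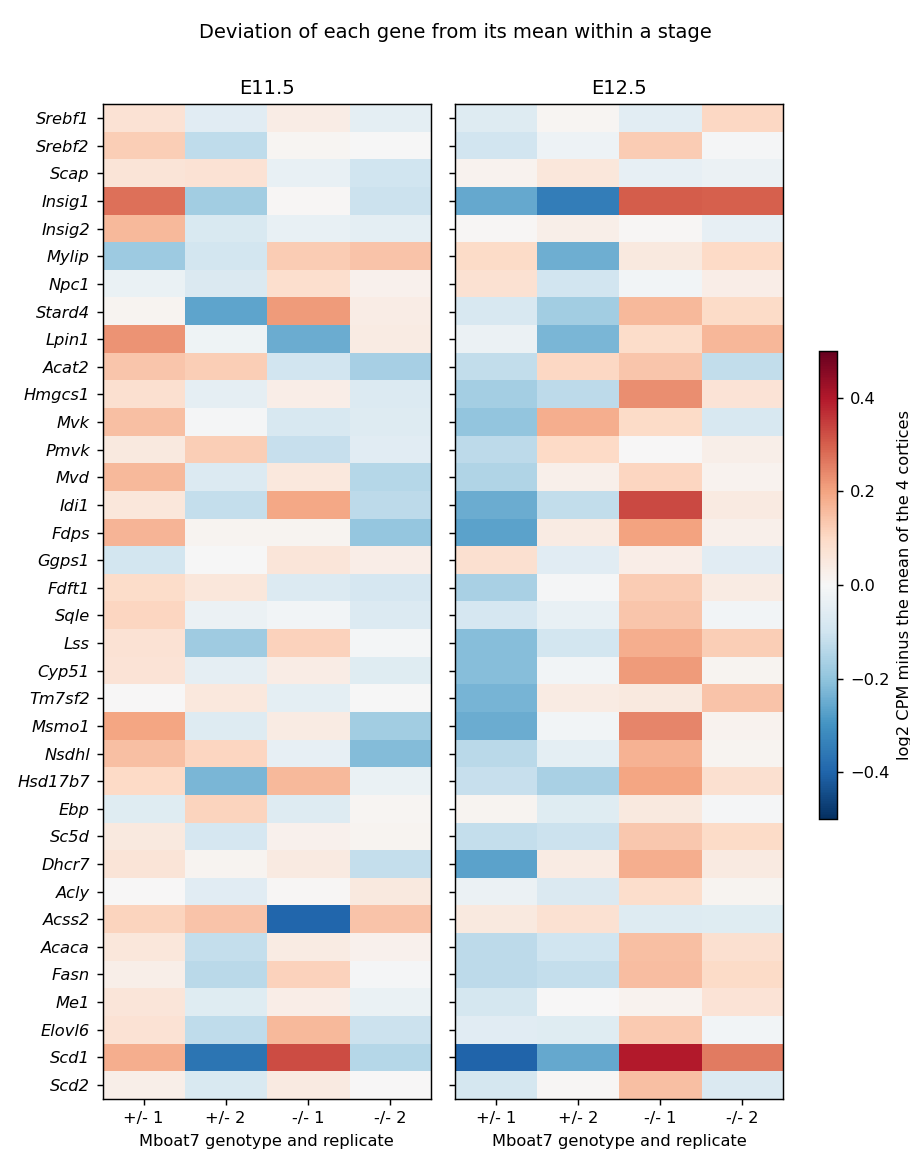
Deviation of each gene (rows, in pathway order) from its mean over the 4 cortices of a stage, in log2 CPM, for each cortex (columns), with E11.5 on the left and E12.5 on the right, red above and blue below the mean. At E12.5 most rows are bluest in Mboat7+/- replicate 1 and reddest in replicate 1 of those labelled Mboat7-/-, and at E11.5 replicate 1 of either genotype is mostly redder than replicate 2.

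At E11.5, where the group could be tested, no gene of the 36 had an adjusted p under 0.05 in edgeR's quasi-likelihood test, nor had any of the 14935 genes tested (0%). An unadjusted p under 0.05 was reached by 3 of the 36, all lower (Acat2, Nsdhl and Fdft1), where 5.81% of all genes were lower and 7.94% higher by that criterion. None of the 36 reached an absolute log2 fold change of 0.3, which 22.8% of all genes did. Acat2 was at 263 and 259.9 CPM in the Mboat7+/- cortices and 223 and 213 CPM in those labelled Mboat7-/-, or in log2 fold change -0.26 ± 0.06, with an edgeR adjusted p of 0.19. It met the threshold in DESeq2 (adjusted p = 0.0473) and in edgeR with the replicate number as a block (adjusted p = 0.0482), and its range over the alternatives was 0.0473 to 0.752. With the copy Acat3 sharing its sequence, this value is uncertain too.

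Nsdhl was at 67.8 and 65.7 CPM against 59.3 and 52.6 CPM at E11.5, a log2 fold change of -0.25 ± 0.09, with an edgeR adjusted p of 0.276. Nsdhl lies on the X chromosome, and the cortex with Xist, Mboat7+/- replicate 1, had the highest value, although the other control was close to it. Without Mboat7+/- replicate 1 the log2 fold change was -0.23. Ebp, also X-linked, was at 14.0 and 15.8 CPM against 14.0 and 14.7 CPM. Fdft1 was at 157 and 153 CPM against 141 and 139 CPM, lower in both labelled Mboat7-/- cortices (log2 fold change -0.15 ± 0.06, edgeR adjusted p 0.347). Fdps, Pmvk and Mvk were also lower without overlap, with log2 fold changes of -0.18, -0.17 and -0.15 and adjusted p of 0.421, 0.463 and 0.508 in edgeR's quasi-likelihood test. Over the 36 genes, 8 lay below both controls (those 6 with Scap and Tm7sf2) and 5 above (Mylip, Npc1, Stard4, Ggps1 and Acly), against 23.3% and 23.1% of all genes. The number below was 21 without Mboat7+/- replicate 2 and 15 without replicate 1 of those labelled Mboat7-/-, and the number above was 18 without Mboat7+/- replicate 1, 12 without replicate 2 of those labelled Mboat7-/- and 2 with the trends removed.

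The 5 genes furthest from 0 at E12.5 each overlapped between the genotypes at E11.5. Insig1 was at 135 and 99.1 CPM against 112 and 104 CPM (log2 fold change -0.12 ± 0.13, edgeR adjusted p 0.728), with Mboat7+/- replicate 1 the highest cortex. Scd1 was at 103 and 70.4 CPM against 114 and 82.2 CPM, high in replicate 1 of either genotype, at a log2 fold change of 0.18 ± 0.19, with an edgeR adjusted p of 0.715. Hmgcs1, Idi1 and Lss were at 572 and 525 CPM against 552 and 515 CPM for the first, 61.8 and 54.7 CPM against 68.0 and 54.3 CPM for the second and 60.6 and 51.0 CPM against 62.4 and 57.2 CPM for the third. Acss2 was at 23.2 and 23.7 CPM against 16.3 and 23.7 CPM, where replicate 1 of those labelled Mboat7-/- alone was low. Its log2 fold change was -0.23 ± 0.18, and 0.01 without that cortex. Srebf1 and Srebf2 had log2 fold changes of -0.01 and 0.00, and Scap one of -0.14 ± 0.07, with an edgeR adjusted p of 0.441.

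At E11.5 these genes also differed between replicates of a genotype. Replicate 1 was above replicate 2 for 29 of the 36 genes in Mboat7+/- cortices and for 28 of 36 in those labelled Mboat7-/-, where all genes gave 49.7% and 52.1%. Within batch 1 the labelled Mboat7-/- cortex was higher for 12 of the 36 genes (median log2 difference -0.03) and within batch 2 for 20 (median 0.01). Without Mboat7+/- replicate 1 the median log2 fold change of the 36 was 0.05, and without replicate 2 of those labelled Mboat7-/- it was 0.008, so its sign at this stage depends on single cortices. At E12.5 the replicates did not share an order, since replicate 1 was above replicate 2 for 10 of 36 genes in controls and for 27 of 36 in cortices labelled Mboat7-/-.

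Set side by side, 33 of the 36 genes had a larger log2 fold change at E12.5 than at E11.5. Of the 36, 17 were higher at E12.5 and lower at E11.5, 15 were higher at both stages, 3 were lower at both (for Acss2 at E11.5 through a single cortex) and 1, Ggps1, was higher at E11.5 only. Values near 0, such as those of Srebf2 and Me1 at E11.5, were counted by their sign. The shares over all genes were not computed. Provider and stage cannot be told apart, and the E12.5 values chose the group, so no test of the difference between the stages is given.

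By level per kilobase of the longest transcript in the E12.5 controls, Scd2 was the highest of the 36 (316 CPM per kb), followed by Acat2 (159.6), Hmgcs1 (131) and Acly (97.7). Mylip (1.40) and Lpin1 (2.03) were the lowest. Srebf2 stood at 72.4 CPM per kb and Srebf1 at 17.8. Insig1 was at 29.8 in the controls and 45.1 in the cortices labelled Mboat7-/-, against 7.97 and 7.78 for Insig2.

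Other genes of lipid metabolism were taken in 5 lists. At E12.5, genes of fatty acid elongation and desaturation outside the 36 were higher in 6 of 15 (median log2 fold change -0.01), genes of LXR and of sterol export or storage in 8 of 17 (median -0.03), isoprenoid branch genes in 7 of 13 (median 0.05), genes of SREBP processing and sterol-regulated degradation in 6 of 12 (median 0.02), and genes of acyl donors and glycerolipid synthesis in 11 of 17 (median 0.08). The pair with the largest difference in each list is named. Sec24d, of the vesicle coat that carries SREBPs to the Golgi apparatus, was at 10.4 and 8.99 CPM against 11.7 and 13.3 CPM, and Mbtps2, a protease that cleaves SREBPs, at 32.8 and 25.6 CPM against 31.5 and 35.3 CPM, the first without overlap and the second with it. Abca1, the exporter of cholesterol and an LXR target, overlapped at 31.0 and 18.1 CPM against 23.4 and 34.7 CPM, and the related Abcg1 was lower at 19.9 and 20.4 CPM against 16.5 and 19.2 CPM. Acsl4 and Acsl3, acyl-CoA ligases of which the first prefers arachidonic acid, were both higher without overlap, at 20.4 and 21.9 CPM against 26.1 and 23.8 CPM and at 89.8 and 93.4 CPM against 108 and 102 CPM. Trit1, which puts isopentenyl groups on transfer RNA, was higher at 14.6 and 12.6 CPM against 15.3 and 19.5 CPM, and Coq2, of ubiquinone synthesis, lower at 42.6 and 41.5 CPM against 36.3 and 34.1 CPM. Hacd2, of fatty acid elongation, was lower at 18.9 and 18.1 CPM against 17.2 and 14.4 CPM, and Fads1, the delta-5 desaturase, higher at 218 and 227 CPM against 251 and 234 CPM.

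At E11.5, 0 of the 77 genes of these lists that were tested had an adjusted p under 0.05 in edgeR's quasi-likelihood test or in DESeq2. At an unadjusted p under 0.05 in the edgeR test, 4 were higher and 3 lower, where 7.94% of all genes were higher and 5.81% lower. In the order of lists above, 7 of 17, 9 of 17, 3 of 13, 10 of 12 and 10 of 18 were higher, with medians of -0.05, 0.03, -0.04, 0.09 and 0.01. Abca1 was at 17.4 and 17.4 CPM against 22.6 and 25.5 CPM (log2 fold change 0.47 ± 0.14, edgeR adjusted p 0.221) and Mbtps2 at 15.8 and 16.9 CPM against 24.2 and 21.3 CPM (0.47 ± 0.14, edgeR adjusted p 0.23), both without overlap. Soat1, which esterifies cholesterol, was at 24.0 and 21.1 CPM against 29.8 and 26.6 CPM, and Sec24d at 16.7 and 15.0 CPM against 20.3 and 19.2 CPM, again both above the controls. Acsl1 was at 10.1 and 8.76 CPM against 12.8 and 12.1 CPM and Acsl4 at 28.4 and 28 CPM against 37.3 and 30.3 CPM. Of the isoprenoid genes, Pggt1b, of protein prenylation, was above both controls at 16.2 and 17.4 CPM against 22.1 and 18.8 CPM and Coq2 below both at 45.3 and 45.6 CPM against 39.6 and 37.5 CPM. Tecr, of fatty acid elongation, was below both controls at 274 and 266 CPM against 233 and 221 CPM (log2 fold change -0.25 ± 0.06, edgeR adjusted p 0.194), as was Fads3 at 12.1 and 14.2 CPM against 11.3 and 11.7 CPM.

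Markers of the cell types that a cortex could hold also differed. At E12.5, 10 of 10 erythroid markers were lower in the cortices labelled Mboat7-/-, with a summed level of 5342 to 7770 CPM in controls and 3834 to 5438 CPM in those cortices, and 6 of 7 microglia and macrophage markers were higher, with sums of 32.1 to 38.8 CPM against 40.5 to 46.3 CPM. Mesenchyme and meninges markers were higher in 7 of 10, with sums of 555 to 714 CPM against 688 to 747 CPM, endothelial ones in 7 of 8, with 245 to 249 CPM against 254 to 270.3 CPM, and neuronal ones in 9 of 10, with 3713 to 3976 CPM against 3877 to 3980 CPM. Dorsal telencephalon markers were higher in 4 of 5 (995 to 1035 CPM against 1017 to 1066 CPM), radial glia markers in 4 of 10 (3117 to 3356 CPM against 2930 to 3180 CPM) and intermediate progenitor markers in 4 of 6 (666 to 667 CPM against 663 to 733 CPM). No marker of these lists was at 0 at E12.5. Their part in the differences of the sterol and fatty acid genes was not tested.

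At E11.5, dorsal telencephalon markers were lower in 5 of 5 (898 to 977 CPM in controls, 673 to 866 CPM in cortices labelled Mboat7-/-), with replicate 1 of the latter lowest. Mesenchyme and meninges markers were higher in 9 of 10 (1631 to 1695 CPM in controls, 1947 to 2086 CPM in cortices labelled Mboat7-/-), neuronal markers lower in 10 of 10 (2242 to 2526 CPM against 1523 to 2363 CPM) and erythroid markers lower in 7 of 7 tested (5245 to 6958 CPM against 3639 to 3880 CPM). The adult globin genes Hba-a1 and Hba-a2, near-identical copies, were at 0 in every E11.5 library. Intermediate progenitor markers were lower in 6 of 6 (678 to 717 CPM against 506 to 662 CPM) and radial glia markers in 6 of 10 (4105 to 4146 CPM against 3665 to 4231 CPM). Endothelial markers were higher in 6 of 8 (282 to 302 CPM against 315 to 324 CPM), as were 4 of 7 microglia and macrophage markers (44.5 to 51.7 CPM against 47.9 to 52.6 CPM). Their part in the E11.5 values was not tested.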

How the data were processed

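Cortices of 8 embryos, 2 per genotype and stage, were profiled by poly(A)-selected, directional RNA sequencing. The authors deposited raw counts of reads per gene, without normalization, in 1 table per stage. The submitters' processing notes name HISAT2 and Subread and the builds mm10 and GRCm39, without versions or the stage each was used for. E12.5 identifiers were matched to symbols through GENCODE M21 and RefSeq GRCm38.p6, and the E11.5 symbol of Msmo1 through its synonym.

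The members and the lists were chosen with earlier results of these data known. Each stage was fitted alone over all genes with edgeR 4.0.16 in R 4.3.3 (TMM, filterByExpr with a minimum count of 10, glmQLFTest, p-values adjusted by Benjamini-Hochberg, threshold 0.05), and all 36 members passed the filter at both stages. Standard errors are the fitted log2 fold change over the root of its F statistic. CPM used normalized library sizes. No log2 fold change of the 36 genes at E12.5 is given a p-value. Every member is accounted for, with values per cortex where the log2 fold change reached 0.3 in either direction, where the genotypes did not overlap at E12.5, and for the SREBP genes and their controls. Other per-cortex values were chosen after they were seen. Of each list of other pathway genes, the 2 of at least 5 CPM that differed most were named.

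The alternatives were RLE normalization, no filter, DESeq2 1.42.0, a replicate block, a length and GC trend removed with splines of 5 degrees of freedom, and each cortex left out. The labels give the replicate number as a batch, which was taken as pairing, though deviations of same-numbered cortices correlated at 0.08 (E11.5) and -0.20 (E12.5) across genes. The label of the second E12.5 control repeats the column name of the first, so that column was assigned by the number in its own name and the sample's title. No 2 cortices were as close as sampling noise (chi-square per degree of freedom of at least 4.41). The closest pair was replicate 1 of either genotype at E12.5. Pairs within a genotype gave 8.35 and 9.96 at that stage, and pairs across genotypes ran from 4.41 to 18.9, so the E12.5 libraries did not group by genotype. At E11.5 the 2 controls were the closest pair (8.42). Fits were tested on simulated data. Where nothing says that embryos came from separate litters, p-values measure the spread between these embryos. Floors cover counting error only. Joins used Python 3.11.15, numpy 2.4.6 and pandas 2.3.3, and figures matplotlib 3.10.9. 1 marker gene is not reported here. Protein sequences were not analysed here.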

Additional observations from a re-analysis of the deposited data

Results flagged for a closer look

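For 3 of the 36 genes, both cortices labelled Mboat7-/- lay below both controls at E11.5 and above both at E12.5. Of all genes tested, 23.3% lay below both at E11.5 and 16.9% above both at E12.5. The share doing both was not computed, and the E12.5 values chose the group. Tm7sf2 separated narrowly, at 28.4 and 29.4 CPM against 27.4 and 28.3 CPM at E11.5 and 12.8 and 15.5 CPM against 15.5 and 16.6 CPM at E12.5. The standard errors of its log2 fold changes were 0.12 and 0.15. The log2 fold change went from -0.15 to 0.17 for Fdft1, from -0.25 to 0.19 for Nsdhl and from -0.05 to 0.18 for Tm7sf2. Leaving out 1 cortex at a time, the E12.5 values ran from 0.09 to 0.25 for Fdft1, lowest without Mboat7+/- replicate 1, from 0.10 to 0.27 for Nsdhl, lowest without Mboat7-/- replicate 1, and from 0.05 to 0.33 for Tm7sf2, lowest without Mboat7+/- replicate 1. The E11.5 values ran from -0.16 to -0.13, from -0.34 to -0.17 and from -0.08 to -0.02. Fdft1 shares 26.5% of its 50-base words with other genes. The difference between the stages was not tested, and stage and sequencing provider cannot be told apart. Nsdhl is X-linked, and Xist was present in 1 of the E11.5 controls.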

How the results depend on the processing

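With 2 cortices per genotype, the differences of the 36 genes are at most 1.58-fold and most lie near the spread between cortices. The median log2 fold change of the 36 genes stayed within its replicate spread under every alternative, between -0.07 and 0.05 at E11.5, where its sign turned without Mboat7+/- replicate 1 and without Mboat7-/- replicate 2, and between 0.10 and 0.21 at E12.5. For the fits with 1 cortex left out, staying within this spread was nearly fixed in advance. The spread is built from the same differences between replicates that move the median there. After removal of the length and GC trends, the genes without overlap were 2 higher at E11.5, and 14 higher and 5 lower at E12.5. With each cortex left out, the count at E11.5 ran from 5 to 18 higher and from 9 to 21 lower, and that at E12.5 from 23 to 28 higher and from 3 to 5 lower, where a lone cortex separates more easily by construction. Such fits assume that the lone cortex varies like the other genotype. At E11.5 the number of the 36 with an adjusted p under 0.05 was 0, but 1 (Acat2) with the replicate block and 1 with DESeq2. Over all genes that number was 0, against 349 with the block, 168 with DESeq2, 317 without a filter, 113 with the block and the trend removed and 1180 without Mboat7-/- replicate 2. The block changed no other call among the 36 genes at E11.5. A crossed pairing at E12.5, added after the data were seen, gave 148 genes over the whole table against 21 with the numbered pairing and 3 without a block. Of the 36 genes, 28 kept the sign of their E12.5 difference and 14 that of their E11.5 difference under the 9 alternatives computed gene by gene, which leave out the unfiltered fit and the crossed pairing. Genes without overlap, 22 higher and 3 lower at E12.5, keep their sign almost by construction when 1 cortex is left out. The share of all genes keeping their sign was not computed, and the E12.5 values chose the group, so the 2 counts do not compare the stages.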
